A study of Arabidopsis thaliana with 67 samples.

Results

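The genes carried by the mitochondrial genome of Arabidopsis thaliana have identifiers that begin with ATMG, and 143 of the 146 such rows in the count table held at least 1 count in at least 1 library. These 143 rows, chosen by identifier and not by how they changed, are described here, among 60886 rows of which 29696 are gene rows. The study profiled RNA from isolated nuclei of Col-0 plants in 67 libraries to compare wild type with mutants of the small-RNA-binding proteins ARGONAUTE5 and ARGONAUTE9. Shoot apices of seedlings 7 days after germination, grown in 16 h light and 8 h dark, gave 100 sorted nuclei per library for Smart-seq3. Nuclei named after mCherry in the titles are labelled stem cells (5 wild-type, 8 ago5, 7 ago9 and 7 ago59 libraries), and nuclei named after the DNA stain DAPI are labelled non-stem cells (3, 3, 4 and 3). Pollen 35 days after germination gave 2 ng of RNA per library for Smart-seq2, from sperm (3 libraries of each genotype) and from vegetative nuclei (4 wild-type, 3 ago5, 4 ago9 and 4 ago59). The genotype written ago59 in the titles is read as the ago5 ago9 double mutant. The labels name neither the alleles nor the promoter that drives mCherry, and nothing says whether replicates were separate plants, so p-values measure a spread that may be technical.

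Plant mitochondria keep a small genome that encodes some subunits of the respiratory chain and of ATP synthase, parts of the cytochrome c maturation pathway, some ribosomal proteins, and ribosomal and transfer RNAs. Most mitochondrial proteins are encoded in the nucleus and imported. In pollen, the vegetative cell grows the tube and the sperm cells take part in fertilization. The sequences come from RefSeq (TAIR10.1), while the labels name TAIR10. The available annotation gave 53 of the 143 rows a note, and in 24 of these the note names a function. The other 90 rows, including the most abundant ones, are given by identifier alone. The notes stand in entries of nuclear genes that name a mitochondrial row as their match or as the source of a pseudogene. Each row with a note was paired with a gene in the chromosome 2 copy described below, except ATMG00450, whose note gives no function.

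Library totals ran from 1.41 to 6.24 × 1000000 counts in seedlings and from 7.16 to 10.2 × 1000000 counts in pollen. Stem marker transcripts (CLV3, STM, KNAT1, WUS and mCherry summed) lay at 116 to 408 CPM (counts per 1000000 counts of the library) in the stem libraries and 3.37 to 50.9 CPM in the non-stem libraries, and CLV3 and WUS were each at 0 in 11 of the 13 non-stem libraries. In sperm, AGO9 lay at 702.9 to 767.1 CPM in wild type and 28.5 to 48.0 CPM in ago9, and AGO5 at 32.8 to 46.6 CPM in wild type and 1.42 to 3.52 CPM in ago5. In stem nuclei AGO5 overlapped between wild type (3.78 to 32.3 CPM) and ago5 (1.82 to 35.1 CPM), and AGO9 overlapped between wild type (35.7 to 139.0 CPM) and ago9 (0 to 42.8 CPM). In ago59 sperm AGO5 lay at 2.30 to 3.91 CPM and AGO9 at 31.1 to 55.3 CPM, both below wild type. In ago59 stem nuclei AGO5 lay at 0.692 to 16.6 CPM, overlapping wild type, and AGO9 at 0 to 26.3 CPM, below it. In non-stem nuclei AGO5 reached 12.3 CPM in 1 ago59 library, against at most 0.321 CPM in wild type. The wild-type seedling libraries stood apart from all mutant ones in nuclear RBCS transcripts, with values given beside the genotype comparisons. The 7 wild-type pollen libraries were tied to their labels by exclusion of the other genotypes, because their columns carry a code in place of a genotype. RNA was labelled as nuclear, and in such bulk libraries fewer cells of a kind and less RNA per cell cannot be told apart.

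Mitochondrial and nuclear rows can hold the same sequence. On chromosome 2, the stretch chr2:3239038-3509765 carries a copy of much of the mitochondrial genome. In all, 72.2% of the 367808 bases of that genome matched there in 19 stretches at 99.56% to 99.972% identity, and 39 of 56 named mitochondrial genes in RefSeq lay at least 80% inside them. The coding exons of 9 mitochondrial genes (atp1, atp8, atp9, cob, cox3, nad3, rpl5, rps4 and rps12) were searched for in the genomic DNA of chromosome 2, and an exact copy was found for all 9 genes. The pairs for atp9 and nad3 are shown because the DNA of both copies has the same letters. Whether RNA from both copies has the same letters was not examined. The atp9 gene encodes the ring-forming membrane subunit of ATP synthase (chrMT:270961-271185 and chr2:3251856-3252080, both on the minus strand, rows ATMG01080 and AT2G07671). The nad3 gene encodes a membrane subunit of complex I, and its first 120 coding bases are given (chrMT:288044-288163 and chr2:3270008-3270127, both on the plus strand, rows ATMG00990 and AT2G07751). Capitals mark the start codon and, in atp9, the stop codon, and both genes lie in exons on the coding strand 5′ to 3′.

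atp9 in the mitochondrion: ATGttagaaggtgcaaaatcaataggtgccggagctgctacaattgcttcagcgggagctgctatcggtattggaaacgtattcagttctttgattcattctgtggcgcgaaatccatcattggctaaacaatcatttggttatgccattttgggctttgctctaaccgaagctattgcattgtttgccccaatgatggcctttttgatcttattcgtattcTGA

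atp9 copy on chromosome 2: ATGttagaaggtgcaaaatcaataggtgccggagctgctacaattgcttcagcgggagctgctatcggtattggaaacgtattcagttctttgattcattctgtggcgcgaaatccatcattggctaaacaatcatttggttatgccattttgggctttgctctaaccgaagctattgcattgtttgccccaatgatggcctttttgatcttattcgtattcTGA

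nad3 in the mitochondrion: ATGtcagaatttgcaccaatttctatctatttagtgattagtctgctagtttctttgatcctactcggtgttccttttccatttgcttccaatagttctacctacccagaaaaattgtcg

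nad3 copy on chromosome 2: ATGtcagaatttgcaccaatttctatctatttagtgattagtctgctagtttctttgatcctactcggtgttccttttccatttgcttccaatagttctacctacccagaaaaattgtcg

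Mitochondrial rows took a far larger share of counts in sperm than in vegetative nuclei. The RNA was labelled as nuclear, and how organelle RNA came into the libraries was not tested. Their share had a lowest, median and highest value of 1.59%, 2.28% and 3.51% in the 12 sperm libraries. In the 15 vegetative libraries these were 0.0147%, 0.0320% and 0.205%. They were 0.347%, 0.469% and 0.682% in the 27 stem libraries and 0.267%, 0.443% and 0.714% in the 13 non-stem libraries. Sperm and vegetative libraries did not overlap, whereas stem and non-stem libraries overlapped over most of their range. No test was made between seedlings and pollen, whose library methods differ. Plastid-encoded rows, the other organelle, stood at a mean of 16.5% of counts in stem and 14.7% in non-stem nuclei, but at 0.0038% in sperm and 0.0016% in vegetative nuclei.

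**Figure D1:**
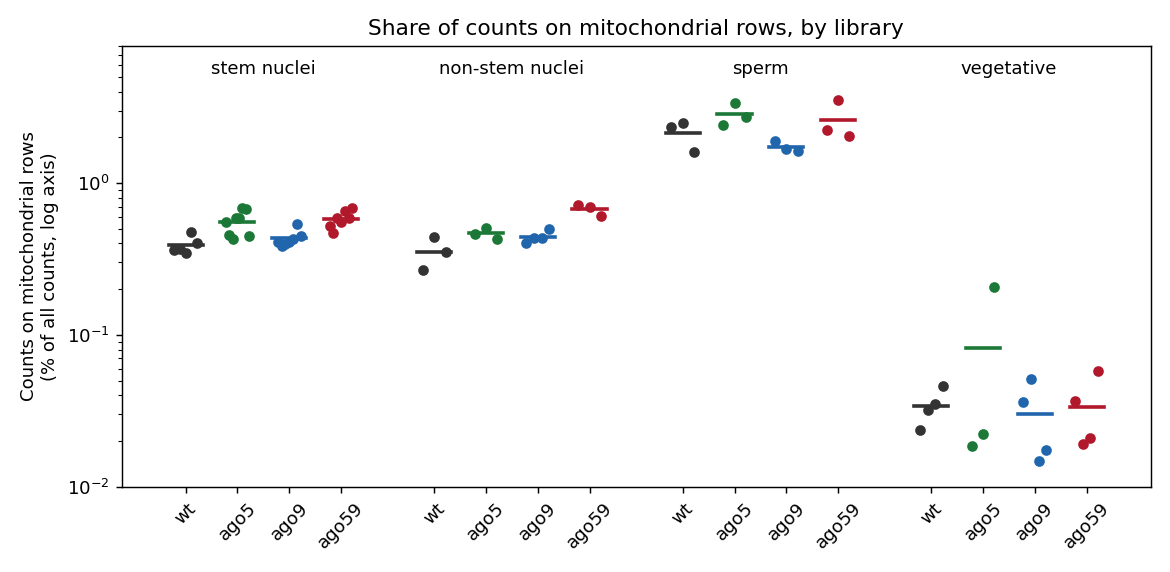
Share of all counts on mitochondrial rows in each library (points, log axis) with group means (lines), by genotype and population. Sperm libraries sit between 1.59% and 3.51%, and 1 ago5 vegetative library at 0.205% stands above the other vegetative libraries.

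Breadth followed a different order from the share. At least 1 count was seen for 138 of the members over the stem libraries, 126 over the non-stem libraries, 80 over the sperm libraries and 52 over the vegetative libraries. In a single library, a mean of 66.3 members were seen in stem, 67.3 in non-stem, 38.3 in sperm and 15.9 in vegetative nuclei. Detection in seedlings but not pollen applied to 53 members, and the reverse to 1 member, over 40 seedling and 27 pollen libraries. The pollen libraries were fewer but deeper. Such counts depend on the number of libraries, and the share over all rows is not given here, so they describe the members only. Members seen in every library of a population numbered 19 in stem (27 libraries), 27 in non-stem (13), 20 in sperm (12) and 3 in vegetative nuclei (15).

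A few rows made up most of the mitochondrial counts. ATMG00020, ATMG00030 and ATMG01390 together held a mean of 80.9% of them in stem nuclei, 80.4% in non-stem nuclei, 99.3% in sperm and 98.9% in vegetative nuclei. These are shares of counts, which also reflect transcript length. ATMG00020 alone held 44.2% in stem, 43.4% in non-stem, 69.2% in sperm and 60.6% in vegetative nuclei, and ATMG00030 held 32.1%, 32.2%, 22.2% and 32.7%. The ratio of ATMG00020 to ATMG00030 counts averaged 1.46 ± 0.61 (SD, n = 27) in stem, 1.39 ± 0.32 (n = 13) in non-stem, 3.31 ± 0.94 (n = 12) in sperm and 1.89 ± 0.36 (n = 15) in vegetative nuclei. Outside these 3 rows, the remaining members held 0.0937% of all counts in stem nuclei and 0.016% in sperm. In wild-type sperm these members held 0.848% of the mitochondrial counts.

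**Figure D2:**
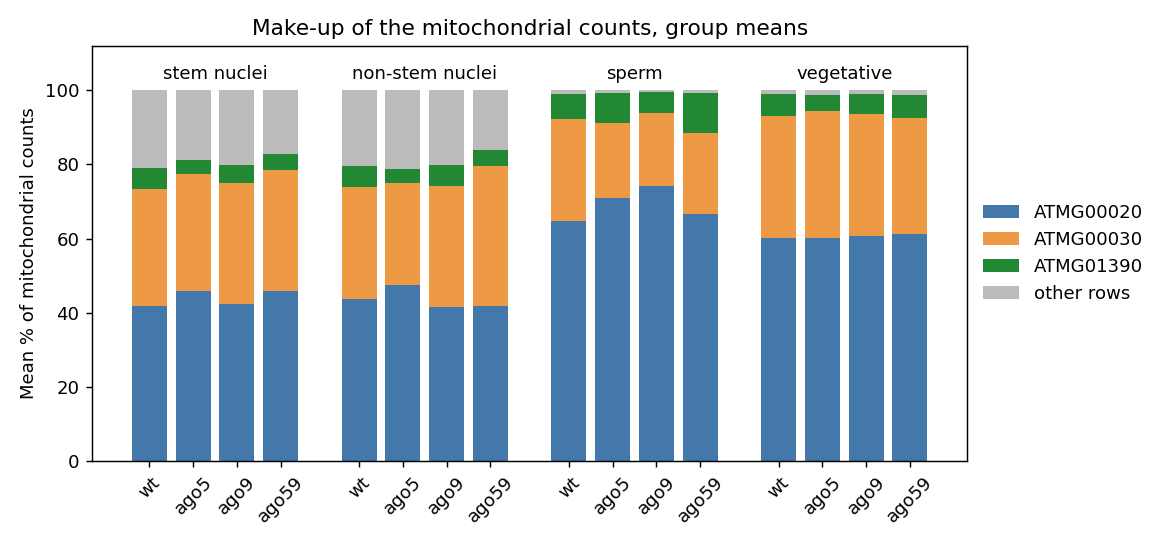
Mean share of the mitochondrial counts held by ATMG00020, ATMG00030, ATMG01390 and all other mitochondrial rows in each of 16 groups (stacked bars, percent). The other rows are visible in seedling groups and form about 1% in pollen groups, where the 3 rows hold a mean of 99.3% in sperm and 98.9% in vegetative nuclei.

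The order of members by mean CPM differed between the tissues. The 10 most abundant members of the seedling libraries and the 10 of the pollen libraries shared 6. The pollen order rests on a mean over sperm and vegetative libraries, so it mostly follows sperm, where levels were far higher. ATMG00090 had rank 3 in seedlings at 253 ± 55.1 CPM (SD, n = 40), and lay at 5.70 ± 2.72 CPM (n = 3) in wild-type sperm. ATMG01380 had rank 4 in pollen, at 38.7 ± 7.80 CPM in wild-type sperm. Of the mitochondrial counts outside ATMG00020, ATMG00030 and ATMG01390, it held 23.6% ± 5.43 in sperm (SD, n = 12) and 12.8% ± 11.2 in vegetative nuclei (n = 15), while ATMG01190 held 2.25% ± 1.59 and 6.92% ± 11.1. These vegetative percentages rest on few counts. Outside the 3 rows a vegetative library held 19 to 48.9 counts, apart from 140 in ago5 replicate 4. ATMG01190 had 33.1 counts over all 15. The annotated members in the seedling list were ATMG01190 (ATP synthase subunit 1), at 32.1 ± 26.6 CPM, ATMG00410 (ATPase subunit 6-1), at 28.3 ± 15.4 CPM, and ATMG01080 (F0-ATPase subunit 9), at 24.7 ± 9.80 CPM. In the pollen list the annotated members were ATMG01080 and ATMG00990 (NADH dehydrogenase 3).

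Members with a mean of at least 10 CPM in seedlings numbered 23, and their SD over the 40 libraries ran from 21.6% to 117.4% of the mean, with a median of 46.2%. ATMG01390, at 21.6%, and ATMG00090, at 21.8%, varied least. ATMG00990, at 117.4%, varied most and was at 0 in 18 of the 40 libraries.

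The spread of ATMG00990 was matched by its chromosome 2 copy in the opposite direction. In stem nuclei ATMG00990 averaged 24.1 ± 27.8 CPM (SD, n = 27) and the copy AT2G07751 averaged 46.3 ± 29.8 CPM, while their sum averaged 70.4 ± 16.5 CPM. The SD was 115% of the mean for the mitochondrial row and 23.4% for the sum. Over the 40 seedling libraries, 18 had counts on the copy only, 10 on the mitochondrial row only, 12 on both and 0 on neither. In sperm the mitochondrial row carried nearly all of the pair, at 13.5 ± 6.42 CPM against 0.631 ± 2.18 CPM (n = 12).

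Other pairs split their counts in other ways. ATMG01190, the mitochondrial alpha subunit of ATP synthase, averaged 26.3 ± 21.3 CPM in stem nuclei beside 163 ± 38.0 CPM on its copy AT2G07698, and the SD fell from 81.1% of the mean for the row to 21.3% for the sum. ATMG01080 lay above its copy in stem nuclei (24.1 ± 9.91 and 4.89 ± 3.30 CPM) and below it in sperm (16.7 ± 7.32 and 23.6 ± 10.7 CPM). ATMG00220, apocytochrome b of complex III, was at 0 in all 40 seedling libraries, while AT2G07727, the copy, averaged 30.7 ± 10.5 CPM in stem and 23.4 ± 8.06 CPM in non-stem nuclei. Levels of single members with such a copy are therefore uncertain. The deposited expected counts do not tell which copy was transcribed.

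**Figure D3:**
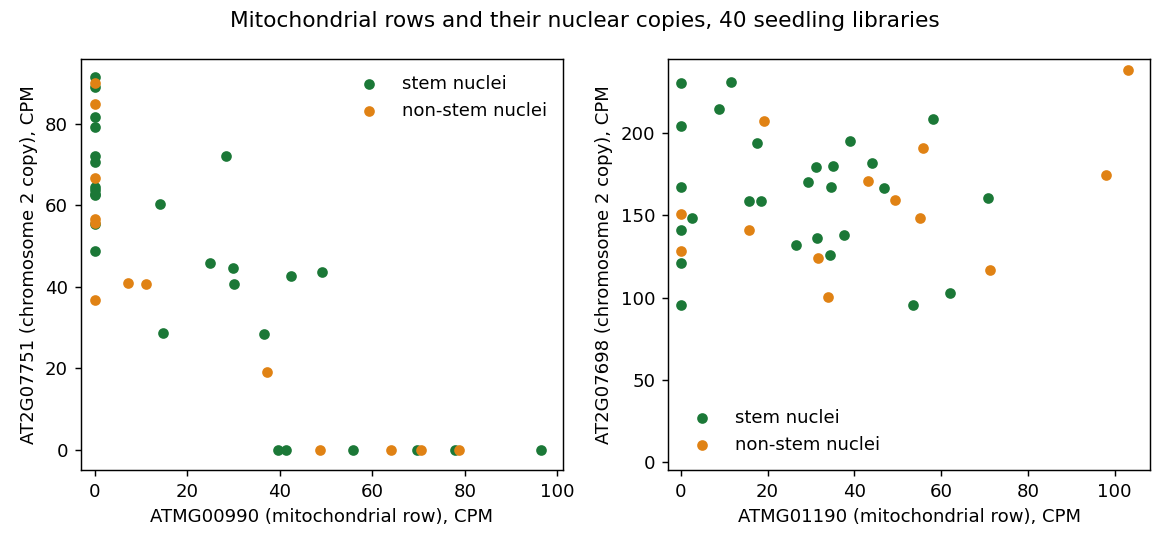
CPM of ATMG00990 and ATMG01190 (horizontal axes) against their chromosome 2 copies AT2G07751 and AT2G07698 (vertical axes) in 27 stem and 13 non-stem libraries. For ATMG00990, 18 libraries lie at 0 on the mitochondrial row, 10 at 0 on the copy and 12 above 0 on both. AT2G07698 is above 0 in every library.

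Summed over 113 rows in the matched part of chromosome 2, the copies followed the same order across populations as the members outside the leading 3. The copies stood at 1453 ± 177 CPM in stem, 1329 ± 223 CPM in non-stem, 117 ± 38.5 CPM in sperm and 3.85 ± 3.21 CPM in vegetative nuclei. Per count on those members they held 1.56 counts in stem, 1.46 in non-stem, 0.754 in sperm and 0.976 in vegetative nuclei.

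Between wild-type sperm and vegetative nuclei, each member that could be tested was higher in sperm. The leading row ATMG00020 lay at 14864, 18842 and 8826 CPM in the sperm libraries and at 144, 176, 205 and 308 CPM in the vegetative libraries. ATMG01390 lay at 1280, 1076 and 1784 CPM in sperm and at 17.1, 14.9, 26.4 and 19.3 CPM in vegetative nuclei. The groups did not overlap for either row. By the quasi-likelihood test of edgeR, with p-values adjusted by Benjamini-Hochberg over every row tested, the log2 change of ATMG00020 was 6.15 (SE 0.34, adjusted p = 5.41e-12). It was 6.13 for ATMG01390 (SE 0.22, adjusted p = 1.27e-14, edgeR) and 5.72 for ATMG00030 (SE 0.26, adjusted p = 3.53e-13).

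In that comparison 18 members passed the filter on low counts, 18 were called higher and 0 lower. Of all 10125 rows tested 91.1% were called and 45.0% were called higher, so a call by itself does not set the members apart. Members near 0 in vegetative nuclei could pass the filter only through sperm, so this count is a description. Their log2 fold changes ran from 4.42 to 8.00 with a median of 5.61, beside a median of -0.16 over all rows tested. This median over all rows was 0.30 under RLE scaling, and the direction of each tested member was unchanged. Of the other 125 members, 78 had no count in either group, 37 had more summed counts in sperm, 9 had more in vegetative nuclei and 1 had the same in both to 1 decimal. ATMG00160, at 8.00, was tested with no count in the wild-type vegetative libraries, and its fitted change is no bound.

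The annotated members among the tested ones had few vegetative counts, with 2 to 12 summed over the 4 wild-type libraries of each, so that they passed the filter through sperm and their fold changes are imprecise. ATMG01080, ATP synthase subunit 9, rose by 5.49 on the log2 scale (adjusted p = 4.4e-10, edgeR), and ATMG01190, ATP synthase subunit 1, rose by 4.72. The complex I subunits ATMG00990 and ATMG01320 (NADH dehydrogenase 2B) rose by 5.50 and 4.42. Cytochrome c oxidase subunit 3, ATMG00730, rose by 4.85, and ATMG00180, which belongs to cytochrome c biogenesis, rose by 4.87. Of the 11 chromosome 2 copies tested, 11 were called higher, as were 45.0% of all rows, and copies near 0 in vegetative nuclei could likewise pass the filter only through sperm.

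**Figure D4:**
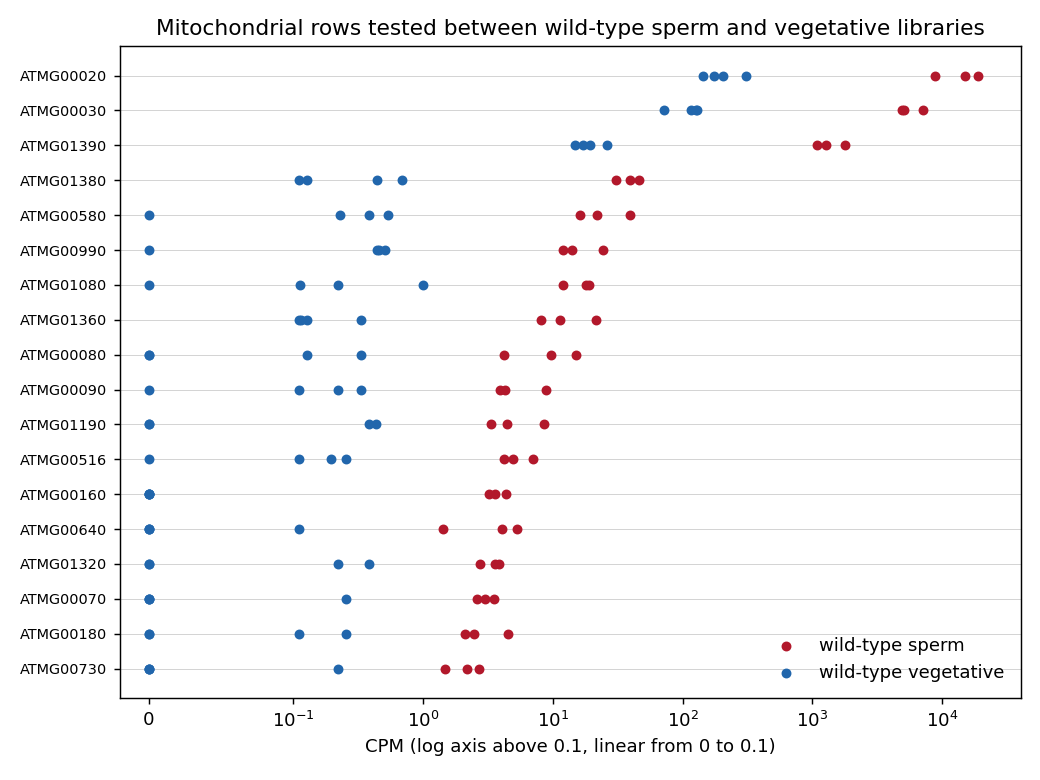
CPM of the 18 tested mitochondrial rows in 3 wild-type sperm libraries (red) and 4 wild-type vegetative libraries (blue), on an axis that is logarithmic above 0.1 and linear below. In every row shown each sperm library lies above each vegetative library.

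Markers of the other pollen cell were detected in both fractions. In vegetative libraries, sperm markers (DUO1, HAP2 and GEX1 summed) stood at 1.15% to 2.34% of their wild-type sperm mean. The members stood at 0.685% to 9.59% of theirs. In wild-type vegetative libraries the means were 1.67% for the markers and 1.60% for the members. Vegetative markers (VGD1, ANX1, ANX2, ACA9, MYB97 and MYB101 summed) reached 5232 to 11582 CPM in sperm libraries against 28843 to 38379 CPM in vegetative libraries. Their part in the result was not tested.

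Nuclear genes that serve the mitochondrion moved in both directions between wild-type sperm and vegetative nuclei. Of 27 genes for respiration, carriers and ATP synthase, 18 were tested, 9 were higher and 5 lower in sperm, with a median log2 change of 0.69. Over all rows 91.1% were called and 45.0% were called higher, so these counts do not set the list apart. The outer-membrane channel VDAC2 lay at 168.5 ± 16.1 CPM in sperm (SD, n = 3) and 3.23 ± 0.93 CPM in vegetative nuclei (n = 4), a log2 change of 5.70 (adjusted p = 2.3e-15, edgeR). The electron carrier CYTC-2, cytochrome c, rose by 3.57 and the complex I protein CIB22 by 4.81. VDAC1, VDAC3 and EMB1467, another complex I protein, changed by -1.97, -3.11 and -1.58.

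Of 15 genes for upkeep and expression of the mitochondrial genome, 8 were tested, 6 were higher and 2 lower, with a median log2 change of 5.11. Over all rows 91.1% were called, 45.0% were called higher and the median change was -0.16. Genes near 0 in vegetative nuclei could pass the filter only through sperm. MSH1, which guards organelle DNA against recombination between repeats, was higher by 5.88 and the organelle exonuclease DPD1 by 4.30. The organelle DNA polymerase POLIB went the other way, at 4.41 ± 2.26 CPM in sperm and 84.7 ± 17.2 CPM in vegetative nuclei, a log2 change of -4.29 (adjusted p = 3.72e-13, edgeR). In all the other comparisons 0 genes of either list were called.

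Between wild-type stem and non-stem nuclei, the mitochondrial share did not separate the groups. It was 0.362%, 0.369%, 0.347%, 0.479% and 0.403% in stem libraries and 0.267%, 0.443% and 0.352% in non-stem libraries, which overlapped. Of 46 members tested 0 were called by edgeR, where 0.181% of 17155 rows were called, and 3 members had an unadjusted p under 0.05. ATMG00020 lay at 1641 ± 288 CPM in stem (SD, n = 5) and 1556 ± 458 CPM in non-stem nuclei (n = 3), a log2 change of 0.10 (SE 0.19). DESeq2 called 1 member, ATMG00090, higher in stem nuclei, named here after its value was seen. The share of all rows that DESeq2 called is not given here, so this call does not set the member apart. The estimated biological coefficient of variation was 0.601 for these seedling libraries and 0.162 for wild-type pollen.

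In stem nuclei the mean mitochondrial share was higher in ago5 and ago59 than in wild type, a description without a test. The 5 wild-type libraries averaged 0.392% with an SD of 0.0527, and the 8 ago5 libraries averaged 0.552% with an SD of 0.0998. The means were 0.432% over the 7 ago9 libraries (SD 0.0512) and 0.580% over the 7 ago59 libraries (SD 0.0731). Of the ago59 libraries 6 of 7 lay above the highest wild-type library, as did 5 of 8 ago5 libraries and 1 of 7 ago9 libraries. Outside the 3 leading rows, 7 of 7 ago59 and 7 of 8 ago5 libraries lay above it.

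Of the members, ATMG00020 passed the test in stem nuclei. It lay at 1364, 1644, 1487, 2119 and 1592 CPM in wild-type stem libraries. Its lowest, median and highest values were 1757, 2546 and 3283 CPM in ago5, 1514, 1714 and 2219 CPM in ago9, and 2276, 2628 and 2970 CPM in ago59. The ago59 libraries lay above wild type without overlap, and 6 of 8 ago5 libraries did so. ATMG00020 rose by 0.54 on the log2 scale in ago59 (SE 0.13, adjusted p = 0.016, edgeR) and by 0.50 in ago5 (SE 0.13, adjusted p = 0.0386). In ago9 its log2 change was 0.01 (SE 0.13, adjusted p = 0.998). These comparisons share the wild-type libraries.

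ATMG00020 was the 1 member of 57 tested that was called in ago5 (1.33% of 18633 rows, 0.451% higher) and in ago59 (2.94%, 0.977% higher), and 0 members were called in ago9 (0.671%; 4 at an unadjusted p under 0.05). The median member change was 0.07 in ago5, 0.23 in ago59 and -0.08 in ago9, beside 0.04, 0.03 and 0.01 over all rows. The ago59 call was lost without wild-type replicate 4 (adjusted p = 0.0589, edgeR) or 5 (adjusted p = 0.0703). The ago5 call was lost without ago5 replicate 5, 6, 7 or 8 or wild-type replicate 3, 4, 5 or 8, at adjusted p-values from 0.0737 to 0.147 (edgeR).

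In non-stem nuclei the mitochondrial share did not overlap between ago59 and wild type. It was 0.714%, 0.695% and 0.605% in ago59, above each wild-type library, and the ratio of group means was 1.90. In ago5 2 of 3 libraries lay above the highest wild-type library, as did 1 of 4 in ago9. ATMG00030 lay at 2500, 2864 and 2254 CPM in ago59 and at 766, 1367 and 1110 CPM in wild type, without overlap. It rose by 1.10 on the log2 scale (SE 0.19, adjusted p = 0.00151, edgeR). ATMG00020 lay at 3091, 2607 and 2707 CPM in ago59 and at 1102, 2018 and 1548 CPM in wild type, and rose by 0.72 (SE 0.17, adjusted p = 0.0298, edgeR). In ago5 it lay at 2083 to 2325 CPM, also above wild type, with a log2 change of 0.36 (SE 0.17, adjusted p = 0.546, edgeR). In ago9 it lay at 1447 to 2172 CPM and overlapped wild type.

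Of 58 members tested in non-stem nuclei, 2 were called by edgeR in ago59 (1.2% of 18334 rows, 0.338% higher). In ago5 0 were called (0.382% of rows), with 7 members at an unadjusted p under 0.05. In ago9 0 were called (0.245% of rows), with 6 such members. DESeq2 called 1 member in ago5, and its share over all rows is not given here. The ATMG00020 call was lost without ago59 replicate 1 (adjusted p = 0.157, edgeR) or 3 (adjusted p = 0.0532) and without wild-type replicate 2 (adjusted p = 0.183) or 4 (adjusted p = 0.0854), whereas ATMG00030 was called without any one library. No difference in genotype change between stem and non-stem nuclei passed the test: for ATMG00030 in ago59 the difference was -0.63 (SE 0.33, adjusted p = 1.0, edgeR), and 0 of 78 members were called in any genotype, with 0.0% of all rows called.

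Other RNA moved with genotype in the seedling libraries. The small Rubisco subunit transcripts RBCS1A, RBCS1B, RBCS2B and RBCS3B summed to 37256 to 43879 CPM in wild-type stem nuclei and 14093 to 25111 CPM in the 22 mutant stem libraries. In non-stem nuclei they summed to 47964 to 52449 CPM in wild type and 14667 to 27953 CPM in the 10 mutant libraries, so that wild type stood apart from all the mutants. Stem markers summed to 11.5, 45.8 and 50.9 CPM in ago59 non-stem libraries and 5.62, 12.8 and 30.5 CPM in wild-type ones, given in rising order. Plastid rows were at 12.4% to 14.8% in wild-type and 15.5% to 16.5% in ago59 non-stem libraries. Their part in the mitochondrial differences was not tested.

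**Figure D5:**
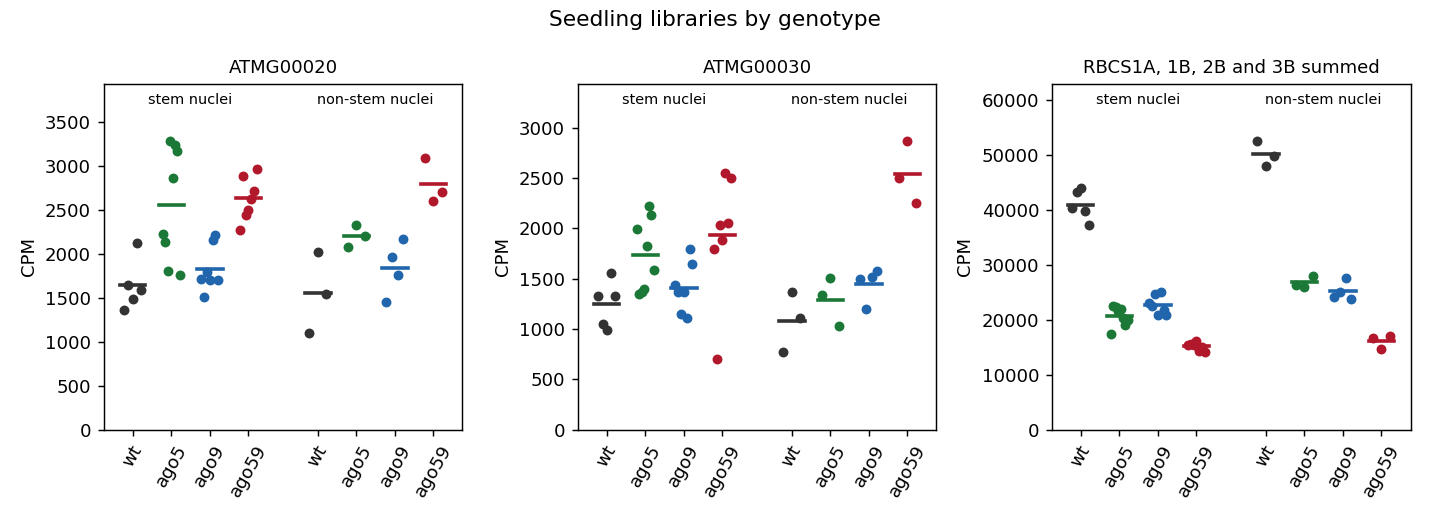
CPM of ATMG00020, ATMG00030 and the summed RBCS transcripts in each seedling library (points) with group means (lines), by genotype, for stem and non-stem nuclei. ATMG00020 in ago59 lies above wild type in both populations, and ATMG00020 in ago5 does so in non-stem nuclei. The RBCS sum in wild type lies above all mutants.

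In sperm the mitochondrial share overlapped between wild type (2.34%, 2.50% and 1.59%) and each mutant. It averaged 2.84% in ago5, 1.74% in ago9 and 2.59% in ago59. ATMG01390 lay at 1280, 1076 and 1784 CPM in wild type and at 2351, 2916 and 2795 CPM in ago59, without overlap, but its log2 change of 0.98 (SE 0.28) had an adjusted p of 0.418 (edgeR). Members outside the 3 leading rows held a share in ago9 that was 0.532 times that of wild type, with 3 of 3 libraries below the lowest wild-type library.

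ATMG01360 and ATMG00080 were called lower in ago9 sperm, and both calls depended on single libraries. ATMG01360 lay at 4.74, 6.11 and 4.82 CPM in ago9 and at 8.13, 11.4 and 21.5 CPM in wild type, without overlap. It fell by 1.14 on the log2 scale (SE 0.25, adjusted p = 0.0256, edgeR). ATMG00080 lay at 2.11, 4.92 and 2.61 CPM in ago9 and at 4.18, 9.66 and 15.2 CPM in wild type, so that 2 of 3 ago9 libraries were below wild type. It fell by 1.36 (SE 0.32, adjusted p = 0.03, edgeR). Counts behind these values were 35 to 51 for ATMG01360 and 19 to 41 for ATMG00080 in ago9.

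These were the 2 members called of 24 tested in ago9 sperm, where 3.37% of 9623 rows were called and 1.31% were called lower, and the median member change was -0.58 beside 0.02 over all rows. In ago5 (0.0312%) and ago59 (0.145%) 0 members were called, with 6 and 4 at an unadjusted p under 0.05. Both ago9 calls were lost without ago9 replicate 1 or 3 or wild-type replicate 3, at adjusted p-values from 0.0704 to 0.123 (edgeR). Without ago9 replicate 2 ATMG01360 had an adjusted p of 0.0581, and without wild-type replicate 2 ATMG00080 had one of 0.0591. Vegetative markers summed to 10147 to 11582 CPM in ago9 sperm and 6929 to 7803 CPM in wild-type sperm, without overlap, and their part in this was not tested.

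In vegetative nuclei 3 members, ATMG00020, ATMG00030 and ATMG01390, passed the filter and 0 were called by edgeR in ago5 (0.0111% of 8973 rows), ago9 (0.1%) or ago59 (1.69%), with 0 at an unadjusted p under 0.05. The share was 0.0236%, 0.0320%, 0.0352% and 0.0462% in wild type. It was 0.0187%, 0.0223% and 0.205% in ago5, where replicate 4 stood apart. In that library members stood at 9.59% of the wild-type sperm mean and sperm markers at 2.34%. No difference in genotype change between sperm and vegetative nuclei passed the test: 0 of 24 members were called (0.0% of all 12025 rows for ago5 and ago9, 0.00832% for ago59), and for ATMG01360 in ago9 the difference was -0.52 (SE 1.21, adjusted p = 0.938, edgeR).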

How the data were processed

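One table of gene counts held all 67 libraries. The authors deposited expected counts (7.58% of values are not whole), and the submitters' processing notes name TAIR10 and DESeq2. The aligner and counter are not given in the sources used here. Of the 67 columns, 60 matched a sample title by name and 7 were assigned to wild-type pollen by exclusion. Here CPM is counts per 1000000 counts of a library, and shares are percent of all counts.

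Counts were rounded and tested with edgeR 4.0.16 in R 4.3.3 (TMM scaling, filterByExpr, glmQLFit and glmQLFTest, adjusted p under 0.05), over all rows. Because TMM scaling differs from total counts, log2 changes can differ from ratios of CPM. Each wild-type contrast used its own groups, mutants were fitted per population, and differences between populations used all groups of a tissue. DESeq2 1.42.0, RLE factors, no filter, nuclear scaling, a replicate block and leaving out each library were alternatives. The fits were tested on simulated data. Mitochondrial DNA was matched to chromosome 2 with blastn 2.17.0 (at least 95% identity over 500 bases).

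Replicate numbers were not found to pair libraries in the comparisons with wild type or between wild-type populations (correlations of deviations from -0.105 to 0.174). Wild-type stem against non-stem nuclei, and ago5 and ago59 against wild type in non-stem nuclei, shared only 2 numbers. That was too few for the rule used to find pairing. Pairs of mutant libraries across populations were not examined. Named members are the 10 highest by mean CPM in each tissue and up to 5 called per direction in a comparison, and up to 3 called genes per direction of each nuclear list. Of the upkeep list, 6 genes whose symbols were not matched were left out. Members and lists were chosen with earlier results of these data known.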

Additional observations from a re-analysis of the deposited data

Results flagged for a closer look

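Of 80 combinations of measure and group examined, 7 held a library farther from the others than Dixon's criterion allows, and chance marks about 1 in 20. Groups of 3 libraries were too small to examine. This left out all sperm groups, the wild-type, ago5 and ago59 non-stem groups, and ago5 vegetative nuclei, where replicate 4 stood apart. The ago9 stem library replicate 7 had a mitochondrial share of 0.539%, against 0.388% to 0.452% in the other ago9 stem libraries. In stem nuclei the ratio of ATMG00020 to ATMG00030 counts was 4.12 in ago59 replicate 2, against 1.03 to 1.33 in the other libraries, and 2.35 in ago5 replicate 5, against 1.11 to 1.59. ATMG00030 lay at 700.8 CPM in ago59 stem replicate 2, against 1797 to 2551 CPM. ATMG00080 lay at 23.5 CPM in wild-type stem replicate 5, against 55.4 to 66.6 CPM, and at 0.321 CPM in ago9 vegetative replicate 3, against 0.106 to 0.116 CPM. ATMG01360 lay at 0.332 CPM in wild-type vegetative replicate 4, against 0.112 to 0.129 CPM. It had 6 counts summed over the wild-type vegetative libraries. Both vegetative flags lie near 0, where values move in steps of single counts, so Dixon's criterion says little about them.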

How the results depend on the processing

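No direction of a called member reversed, in the comparison that called it, under any alternative that was run. Directions of members that were not called were not followed in this way. The counts of called members below come mostly without the share of all rows called under the same setting. They describe the members only and do not set them apart from other rows. Members let in by dropping the filter have few counts. Without the filter on low counts, edgeR called 28 members between wild-type sperm and vegetative nuclei. In stem nuclei it called 5 in ago5 (4 lower) and 6 in ago59 (4 lower), and in non-stem nuclei 2 in ago5 (2 lower) and 4 in ago59 (1 lower). In sperm it called 2 in ago5 (0 lower), 10 in ago9 (8 lower) and 2 in ago59 (0 lower), and in vegetative nuclei 3 in ago5 (0 lower) and 1 in ago59 (1 lower). Among differences between populations it then called 1 for ago5 and 1 for ago59 in seedlings, and 2 for ago5, 1 for ago9 and 2 for ago59 in pollen. DESeq2 called 1 member in ago5 non-stem nuclei and 1 between wild-type stem and non-stem nuclei. Averaging that contrast over the 4 genotypes called 2. With the replicate block 2 members were called in ago59 stem nuclei and 2 between wild-type stem and non-stem nuclei. The replicate numbers were not found to pair libraries where this could be examined. The block moved no other count of called members by more than 1.5 times. Over all rows it moved the calls from 31 to 95 between wild-type stem and non-stem nuclei, from 70 to 46 in ago5 non-stem nuclei, from 324 to 519 in ago9 sperm and from 152 to 40 in ago59 vegetative nuclei. The ago9 non-stem members at an unadjusted p under 0.05 went from 6 to 3. The cause of these changes was not tested. Leaving out 1 library at a time gave 0 to 1 called members for ago5 stem, 0 to 2 for ago59 stem, 1 to 2 for ago59 non-stem, 0 to 2 for ago9 sperm and 0 to 1 for wild-type stem against non-stem nuclei. Mitochondrial counts were also taken per 100 counts on nuclear gene rows. Their means in stem nuclei were 0.480 in wild type, 0.680 in ago5, 0.527 in ago9 and 0.713 in ago59. In non-stem nuclei they were 0.417, 0.554, 0.527 and 0.817 in the same order. In sperm they averaged 3.44 in ago5 and 2.09 in ago9. Single sperm libraries held 2.90, 3.01 and 1.86 in wild type, and 2.65, 4.27 and 2.52 in ago59. Alternatives without ribosomal RNA rows were not run, since the annotation used ties no ATMG row to a ribosomal RNA.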
